A study of Bos taurus with 12 samples.

Results

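The genes described here are 10 components of Wnt signalling, namely the ligands WNT5A and WNT5B, the secreted inhibitors SFRP1, SFRP2, SFRP4, DKK1, DKK2, DKK3 and WIF1, and the pathway scaffold and target AXIN2. They were taken by gene symbol from the mRNA table, where all 10 were found, each on 1 of its 33714 rows. The study followed cultured intramuscular preadipocytes of Qinchuan cattle, isolated from the longissimus dorsi muscle of newborn animals, through adipogenic differentiation. RNA was sequenced at 0, 3, 6 and 9 d, with 3 replicates a day and 12 libraries in all. The 0 d cells were nearly confluent and uninduced. The later cells received dexamethasone (DEX), 0.5 mM of the phosphodiesterase inhibitor IBMX and 5 µg/mL insulin for 48 h, then insulin alone at the same concentration. All cells were kept in DMEM-F12 medium with 15% FBS. The 3 d cells had therefore left the full cocktail about a day earlier, and time since induction and the change of medium cannot be told apart.

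Wnt ligands bind Frizzled receptors together with LRP co-receptors and thereby keep beta-catenin from being degraded, so that it can activate target genes with TCF/LEF factors. This beta-catenin branch is known to hold mesenchymal precursors back from becoming adipocytes, and Wnt inhibitors released by the cells can relieve it. WNT5A and WNT5B act largely through receptors of another branch, which does not need beta-catenin, and have been linked to adipogenesis in both directions.

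Expression was given as FPKM, which scales fragment counts to transcript length and library size. The mRNA table gives FPKM without read counts, and read depth was not used here. Between 18423 and 19376 mRNA rows were above 0 in a library. Differences between days were tested with limma on log2(FPKM + 0.1) for the 15402 mRNAs with a mean of at least 0.1 FPKM over the 12 libraries. An mRNA was called when its absolute log2 fold change exceeded 1 and its Benjamini-Hochberg adjusted p was under 0.05. Because of the added 0.1, fold changes on this scale understate those of weakly expressed genes. Of the 10 genes, 8 passed the filter, and WIF1 and AXIN2 did not. The study speaks of biological replicates, but the labels do not say whether they were separate animals or cultures, so the p-values measure the spread between these samples, which may be technical.

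At 3 d vs. 0 d, 3 of the 10 genes were called higher (SFRP2, SFRP4 and DKK1), and 8.06% of all tested mRNAs were called in that direction. The 3 genes called lower were DKK2, DKK3 and WNT5B, beside 15.2% of all tested mRNAs. At 6 d vs. 0 d, SFRP4 and DKK1 were called higher, where 3.39% of all tested mRNAs were, and SFRP1 alone was called lower, a share close to the 7.97% of all tested mRNAs. At 9 d vs. 0 d, SFRP1, SFRP4 and DKK1 were called higher, beside 3.41% of all tested mRNAs. None of the 10 was called lower by limma at 9 d vs. 0 d, where 7.47% of all tested mRNAs were, although 3 of them were lower at an unadjusted p under 0.05. These comparisons share the 0 d libraries.

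Between the induced days the same genes moved again. At 6 d vs. 3 d, DKK2, DKK3 and WNT5B were called higher and SFRP1, SFRP2, SFRP4 and DKK1 lower, beside 9.85% and 9.23% of all tested mRNAs. At 9 d vs. 6 d, SFRP1 and SFRP4 were called higher and DKK1 lower, beside 2.55% and 1.89%. At 9 d vs. 3 d, DKK2, DKK3 and WNT5B were called higher and SFRP2 and DKK1 lower, beside 10.2% and 10.3% of all tested mRNAs. With a pseudocount of 1 in place of 0.1, or a filter at a mean of 1 FPKM, 3 genes in place of 5 were called at 9 d vs. 3 d, 4 in place of 6 at 3 d vs. 0 d and 5 in place of 7 at 6 d vs. 3 d. Under that filter DKK2 and WNT5B were not tested, and no other member lost a call. The pseudocount of 1 also left 2 in place of 3 at 9 d vs. 0 d.

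**Figure D1:**
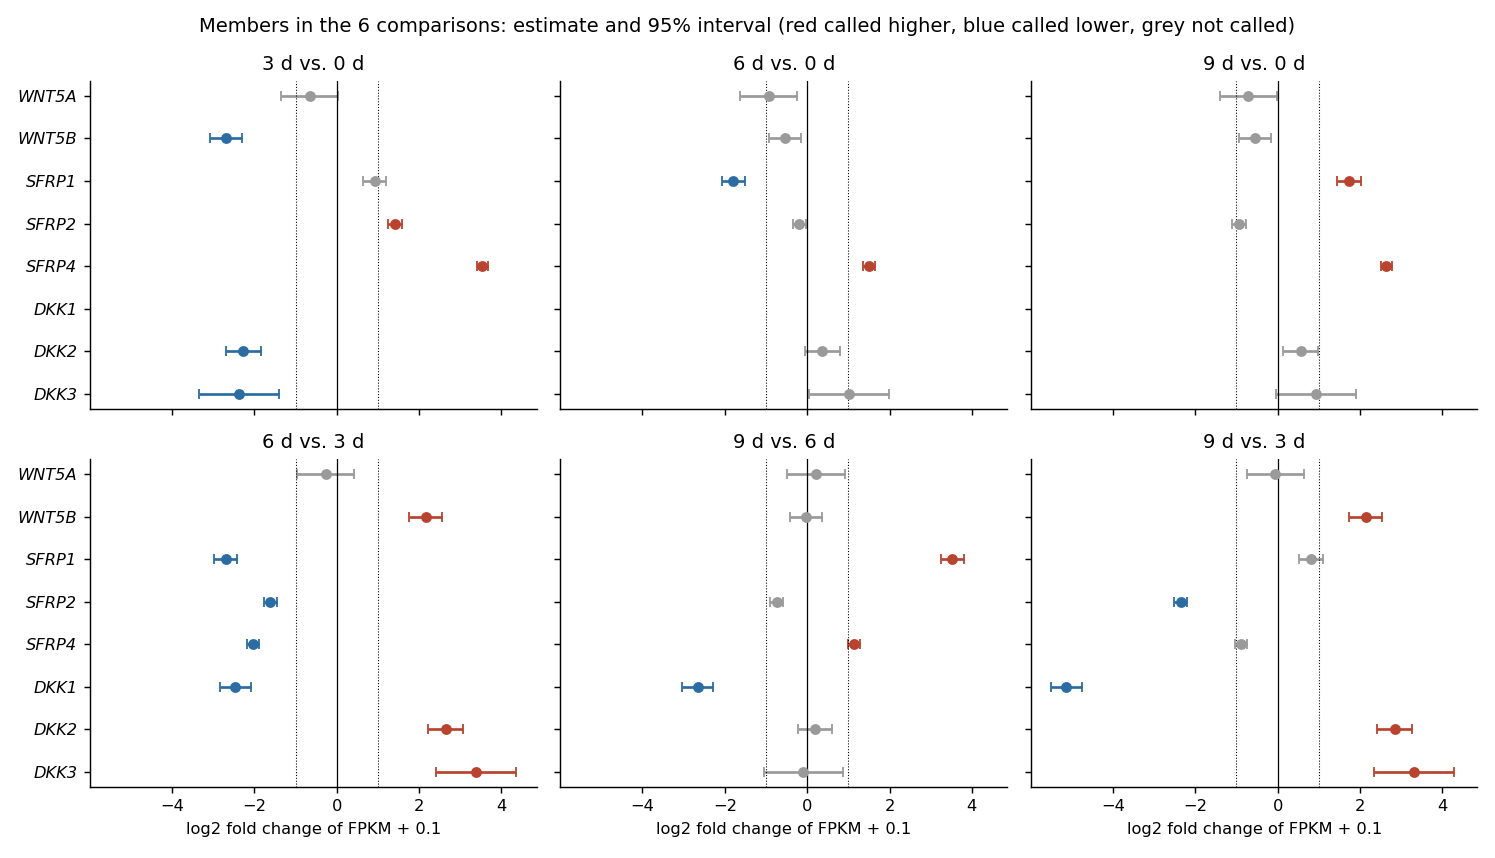
Estimated log2 fold changes (FPKM + 0.1, horizontal axis) of the 8 tested genes with 95% confidence intervals, in 1 panel per comparison. Red points were called higher, blue points lower, grey points were not called, and dotted lines mark the threshold of 1. DKK1 is left out of the comparisons with 0 d, where it was listed at 0.

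Over the whole set of tested mRNAs the log2 fold change had a median of -0.06 at 3 d, -0.15 at 6 d, then -0.19 at 9 d vs. 0 d. Rescaling the libraries by their median ratio brought these medians to 0.01, 0.01 and 0. Relative to that shift, SFRP1 had a log2 fold change of -1.62 at 6 d and of 1.94 at 9 d vs. 0 d, and SFRP4 had 1.67 and 2.85. Each call on these genes was the same with and without rescaling.

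WNT5A was by far the most abundant of the Wnt ligands on every day. Its FPKM was 42.75, 57.07 and 42.37 in the 0 d libraries, 24.60, 32.46 and 32.79 at 3 d, 31.28, 15.11 and 31.25 at 6 d, then 36.43, 32.11 and 19.86 at 9 d. All libraries of the induced days lay below those of 0 d, and the induced days overlapped each other, with single low libraries at 6 d (the second) and at 9 d (the third). The log2 fold change was -0.66 (SE 0.31) at 3 d vs. 0 d and did not pass the test (limma, Benjamini-Hochberg adjusted p = 0.102). At 6 d vs. 0 d it was -0.93 (limma, Benjamini-Hochberg adjusted p = 0.041), under the fold threshold. Without the first or without the third 6 d library this value became -1.11 and was called, but without the low second 6 d library it was -0.58. After rescaling it was -0.76 and did not pass the test (limma, Benjamini-Hochberg adjusted p = 0.0904). At 9 d vs. 0 d it was -0.72 (limma, Benjamini-Hochberg adjusted p = 0.1), -0.51 after rescaling and between -0.89 and -0.46 without single libraries. WNT5A was called in none of the 6 comparisons.

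WNT5B, the closest relative of WNT5A, was expressed at a far lower level. Its FPKM was 0.97, 1.04 and 1.13 at 0 d, 0.06, 0.06 and 0.12 at 3 d, 0.57, 0.83 and 0.70 at 6 d, then 0.68, 0.58 and 0.80 at 9 d. The 3 d libraries were the lowest by a wide margin, 6 d and 9 d overlapped, and 0 d lay above all others. WNT5B fell by 2.69 on the log2 scale at 3 d vs. 0 d (SE 0.175, limma, Benjamini-Hochberg adjusted p = 6.09e-07) and was 2.16 higher at 6 d than at 3 d (limma, Benjamini-Hochberg adjusted p = 4.32e-06). A pseudocount of 1 shrank these values to -0.92 and 0.65 and ended both calls. The values of 6 d and 9 d vs. 0 d, -0.53 and -0.55, had adjusted p of 0.0402 and 0.0326 (limma, Benjamini-Hochberg) and stayed under the fold threshold. After rescaling they were -0.38 and -0.36 and did not pass the test (limma, Benjamini-Hochberg adjusted p = 0.136 and 0.15).

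Of a list of 19 Wnt ligands, 8 passed the filter. At 3 d vs. 0 d, 1 of them was called higher and 5 lower, with a median log2 fold change of -1.20 for the tested ligands and of -0.06 for all tested mRNAs. Each of the 5 called lower had a mean under 1 FPKM over the 12 libraries, so this count and median rest on weakly expressed genes, and only WNT5A, WNT8B and WNT11 had a mean of at least 1. The ligand medians at 6 d and 9 d were -0.70 and -0.58, against -0.15 and -0.19. On these days, 2 were called lower and none higher by limma, and none was higher at an unadjusted p under 0.05 either. At 3 d vs. 0 d, 8.06% of all tested mRNAs were called higher and 15.2% lower. These shares were 3.39% and 7.97% at 6 d, then 3.41% and 7.47% at 9 d vs. 0 d. The same shares stand beside the counts of the lists below. The ligand called higher at 3 d was WNT8B, with 0.51, 0.88 and 0.37 FPKM at 0 d and 3.32, 2.15 and 2.29 at 3 d. WNT11, a ligand of the branch that does not need beta-catenin, had 8.73, 10.41 and 6.71 FPKM at 0 d and 3.41, 3.53 and 4.19 at 9 d, with no overlap. Its log2 fold change of -1.18 passed the test (limma, Benjamini-Hochberg adjusted p = 0.0263), but not after rescaling (-0.97, adjusted p = 0.0599) nor without the first or second library of either day (adjusted p of 0.0669 to 0.0856). WNT7A, WNT8A and WNT9B were listed at 0 in all 12 libraries.

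**Figure D2:**
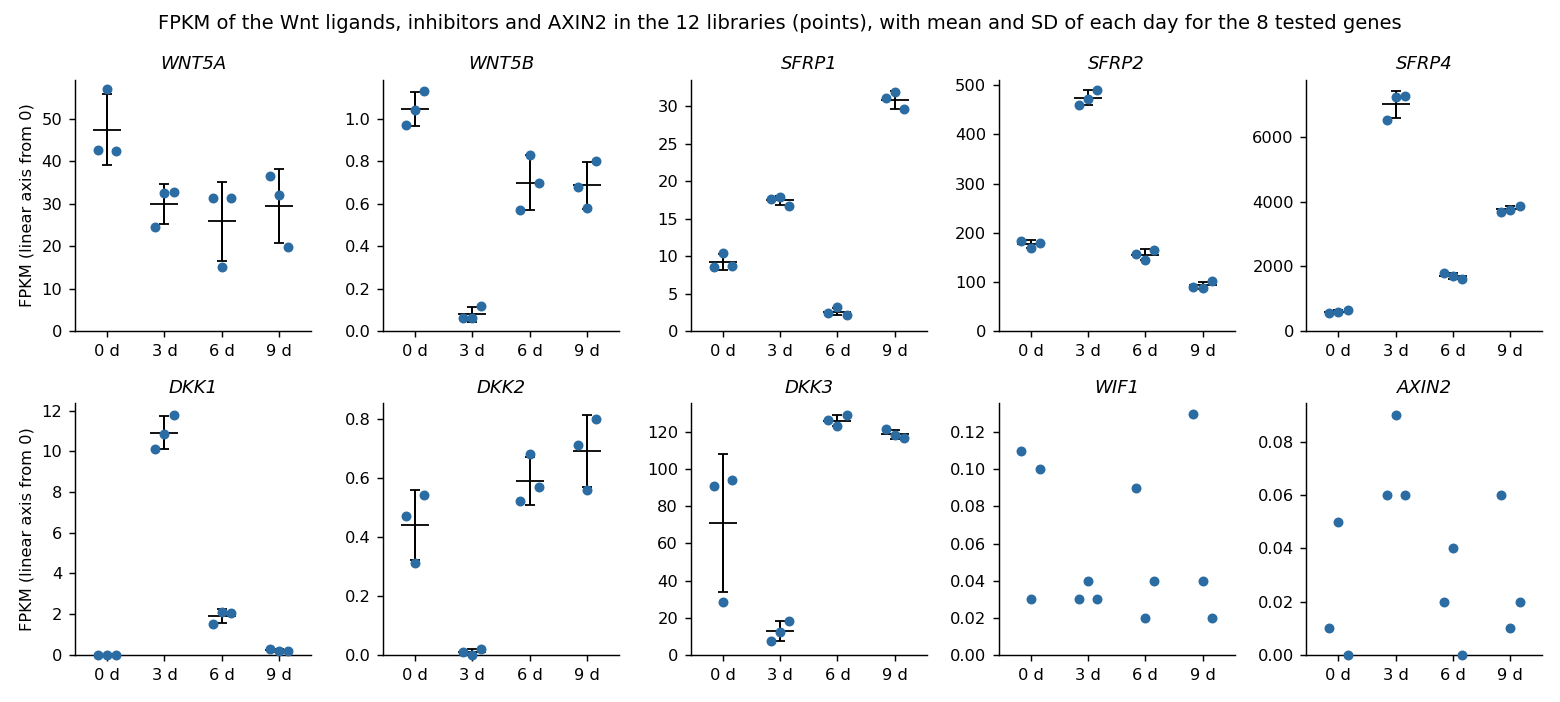
FPKM of each of the 10 genes (linear vertical axes from 0, each gene on its own scale) by day, with 1 point per library. Horizontal marks and bars give the mean and SD of 3 libraries for the 8 tested genes, except where all 3 are at 0. SFRP2, SFRP4 and DKK1 stand highest at 3 d, SFRP1 at 9 d, and WNT5B, DKK2 and DKK3 are lowest at 3 d.

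SFRP4 was the most abundant of the 10 genes on all 4 days. Like the other secreted frizzled-related proteins, it carries a domain like that of the Frizzled receptors and binds Wnt ligands outside the cell. Its FPKM was 573.78, 591.92 and 646.86 at 0 d, 6516.73, 7224.67 and 7266.97 at 3 d, 1793.54, 1717.89 and 1621.05 at 6 d, then 3688.42, 3748.15 and 3878.34 at 9 d. No libraries of any 2 days overlapped, and the order of the days was 3 d, 9 d, 6 d and 0 d. At 3 d it was the mRNA of rank 15 in all 3 libraries, with a mean of 0.561% of the summed FPKM, whereas its rank at 0 d was between 288 and 334.

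The mean FPKM of SFRP4 was 11.6-fold that of 0 d at 3 d, 2.83-fold at 6 d, then 6.24-fold at 9 d. The log2 fold changes were 3.53 (SE 0.0624, limma, Benjamini-Hochberg adjusted p = 8.15e-11) at 3 d, 1.50 (limma, Benjamini-Hochberg adjusted p = 8.36e-08) at 6 d, then 2.64 (limma, Benjamini-Hochberg adjusted p = 4.41e-09) at 9 d. Between 3 d and 6 d SFRP4 fell by 2.03, and between 6 d and 9 d it rose by 1.14 (limma, Benjamini-Hochberg adjusted p = 3.93e-09 and 1.94e-06). These were bulk cultures, in which fewer cells of a type and less RNA per cell cannot be told apart.

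SFRP2 showed a single peak at 3 d. Its FPKM was 183.61, 168.24 and 179.87 at 0 d, 460.69, 471.29 and 490.76 at 3 d, 157.46, 144.08 and 165.64 at 6 d, then 89.05, 87.69 and 102.16 at 9 d. The 3 d libraries were the highest and the 9 d libraries the lowest, with no overlap between any 2 days, although 0 d and 6 d lay close together. The rise at 3 d was 2.68-fold in mean FPKM (log2 fold change 1.42, SE 0.0742, limma, Benjamini-Hochberg adjusted p = 1.21e-07). At 6 d vs. 0 d the log2 fold change was -0.19 (95% confidence interval -0.35 to -0.02), which did not pass the test (limma, Benjamini-Hochberg adjusted p = 0.0778), and -0.02 after rescaling. At 9 d vs. 0 d it was -0.93 (limma, Benjamini-Hochberg adjusted p = 8.03e-06), just under the fold threshold, and -0.72 after rescaling. Without the third 9 d library it was called. SFRP4 was therefore called higher at 9 d than at 6 d, while SFRP2 had a log2 fold change of -0.74 in that comparison (limma, Benjamini-Hochberg adjusted p = 8.37e-05), under the fold threshold.

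SFRP1 followed another course, with its highest level at the end. Its FPKM was 8.60, 10.41 and 8.66 at 0 d, 17.63, 17.94 and 16.76 at 3 d, 2.47, 3.21 and 2.2 at 6 d, then 31.08, 31.90 and 29.57 at 9 d. The 4 days were fully separated, in the order 9 d, 3 d, 0 d and 6 d. The log2 fold change at 3 d vs. 0 d was 0.92 (limma, Benjamini-Hochberg adjusted p = 0.000164), under the fold threshold, and 1.01 and called without the second 0 d library. SFRP1 fell by 1.79 at 6 d vs. 0 d (SE 0.128, limma, Benjamini-Hochberg adjusted p = 3.18e-06) and rose by 1.74 at 9 d vs. 0 d (limma, Benjamini-Hochberg adjusted p = 4.74e-06). The step from 6 d to 9 d, 3.52 on the log2 scale, was the largest rise of any of the tested genes between these days (limma, Benjamini-Hochberg adjusted p = 2.21e-07).

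DKK1 and DKK2 are secreted proteins that bind the LRP co-receptors and so block beta-catenin signalling, while DKK3 is a divergent relative that is not known to bind them. DKK1 was listed at 0 FPKM in all 3 libraries of 0 d. It had 10.13, 10.87 and 11.76 FPKM at 3 d, 1.53, 2.12 and 2.08 at 6 d, then 0.30, 0.17 and 0.19 at 9 d. All libraries of the induced days were above those of 0 d, and the induced days did not overlap, with the level lower on each later day. No fold is given against 0 d, and the adjusted p was 6.53e-10 at 3 d, 5.56e-08 at 6 d, then 4.3e-05 at 9 d (limma, Benjamini-Hochberg). DKK1 fell by 2.47 between 3 d and 6 d and by 2.66 between 6 d and 9 d on the log2 scale (limma, Benjamini-Hochberg adjusted p = 1.14e-06 and 4.49e-06). At 9 d its call was lost with a pseudocount of 1. None of 11 housekeeping genes was at 0 in any library, their lowest value being 2.77 FPKM. All their values lie above those of DKK1 at 6 d and 9 d. They cannot tell whether DKK1 was absent or below detection at 0 d.

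Although DKK1 was higher in the first 3 d library (10.13 FPKM), DKK3 had the highest day mean of the DKK genes on every day. Its FPKM was 90.68, 28.21 and 93.85 at 0 d, 7.63, 12.09 and 18.31 at 3 d, 126.18, 122.99 and 129.18 at 6 d, then 121.39, 118.38 and 116.63 at 9 d. The 3 d libraries were below all others, and the second 0 d library stood well under the others of its day. DKK3 fell by 2.37 on the log2 scale at 3 d vs. 0 d (SE 0.434, limma, Benjamini-Hochberg adjusted p = 0.00104) and by 2.94 without that library. At 6 d vs. 0 d the log2 fold change was 1.02 (95% confidence interval 0.05 to 1.99, limma, Benjamini-Hochberg adjusted p = 0.1), and 0.45 without that library. The rise from 3 d to 6 d was 9.95-fold in mean FPKM (log2 fold change 3.39, limma, Benjamini-Hochberg adjusted p = 0.00011). At 9 d vs. 6 d the log2 fold change was -0.09, with a 95% confidence interval of -1.06 to 0.88.

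DKK2, like DKK3, was lowest at 3 d, at a much lower level. Its FPKM was 0.47, 0.31 and 0.54 at 0 d, 0.01, 0 and 0.02 at 3 d, 0.52, 0.68 and 0.57 at 6 d, then 0.71, 0.56 and 0.80 at 9 d. The 3 d libraries were near 0 and apart from the rest, 0 d and 6 d overlapped, and so did 6 d and 9 d. DKK2 fell by 2.27 on the log2 scale at 3 d vs. 0 d (SE 0.189, limma, Benjamini-Hochberg adjusted p = 3.73e-06) and was 2.65 higher at 6 d than at 3 d (limma, Benjamini-Hochberg adjusted p = 1.68e-06). With a pseudocount of 1 these values were -0.51 and 0.65 and neither was called. WIF1, a secreted protein that binds Wnt ligands, was at 0.02 to 0.13 FPKM over the 12 libraries and was not tested.

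Among 20 listed secreted Wnt inhibitors, 12 passed the filter. In comparison with 0 d, 4 were called higher and 4 lower at 3 d, 3 higher and 2 lower at 6 d, and 4 higher and 1 lower at 9 d. Their median log2 fold changes on these days were 0.50, 0.18 and 0.54, against -0.06, -0.15 and -0.19 for all tested mRNAs. Of all tested mRNAs, 8.06%, 3.39% and 3.41% were called higher on these days, and 15.2%, 7.97% and 7.47% lower. Apart from the genes above, SFRP5 was the one with the largest change. It had 0.02, 0.08 and 0.02 FPKM at 0 d, 4.24, 5.16 and 5.04 at 3 d, 4.99, 6.18 and 5.02 at 6 d, then 0.44, 0.62 and 0.34 at 9 d. Its log2 fold change was 5.16 at 3 d and 5.32 at 6 d (limma, Benjamini-Hochberg adjusted p = 2.11e-08 and 6.44e-08), so that SFRP5 held at 6 d a level at which SFRP1, SFRP2 and SFRP4 were all below their 3 d values. TRABD2B, a protease that cleaves Wnt ligands, fell by 1.64 at 3 d vs. 0 d (limma, Benjamini-Hochberg adjusted p = 0.00237), but with a pseudocount of 1 the value was -0.91 and the call was lost. That pseudocount also ended the calls vs. 0 d of DKK2 and NOTUM at 3 d and of NOTUM at 6 d. At 9 d it ended those of SFRP5 (0.49) and DKK1. TRABD2A was not analysed here.

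The FPKM of SFRP1, SFRP2 and SFRP4 summed to 791 ± 38.8 (SD, n = 3) at 0 d, 7494 ± 434 at 3 d, 1869 ± 82.4 at 6 d, then 3895 ± 104 at 9 d. SFRP4 made up 76.4% of the sum at 0 d and 91.5% to 96.8% on the later days. The summed FPKM of the 19 Wnt ligands was 59.9 at 0 d, 38.6 at 3 d, 36.4 at 6 d, then 36 at 9 d on average, of which WNT5A gave 71.2% to 82%. The ratio of both sums was 13.9, 10.8 and 15.8 in the 0 d libraries, 197, 195 and 191 at 3 d, 46.9, 85.1 and 39.3 at 6 d, then 89.3, 101 and 150 at 9 d. Every induced library was thus above every uninduced one, and 3 d was above all other days. The spread at 6 d and 9 d came with the low WNT5A value of 1 library on each day. The sums for DKK1, DKK2 and DKK3 were 71.4 ± 37.1 (SD, n = 3) at 0 d, 23.6 ± 6.19 at 3 d, 129 ± 3.04 at 6 d, then 120 ± 2.45 at 9 d, of which DKK3 gave 53.7% at 3 d and at least 98.1% on the other days.

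**Figure D3:**
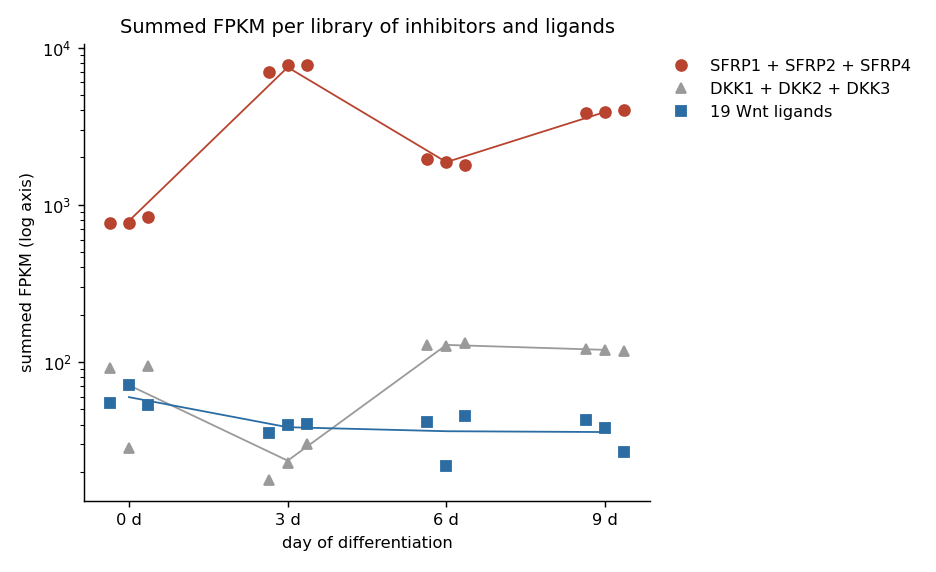
Summed FPKM per library (log axis) of SFRP1, SFRP2 and SFRP4 (red circles), of DKK1, DKK2 and DKK3 (grey triangles) and of the 19 listed Wnt ligands (blue squares) by day, with lines through the means of 3 libraries. The SFRP sum lies between 766 and 835 at 0 d and between 6995 and 7774 at 3 d, while the mean DKK sum is lowest at 3 d, where 1 library of 0 d (28.5) lies within the range of the 3 d libraries (17.8 to 30.1).

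Of 8 listed membrane-bound Wnt inhibitors, 6 were tested, of which 2 were called higher and 1 lower at 3 d, and 3 were called lower at both 6 d and 9 d vs. 0 d. The medians were -0.04, -0.91 and -0.88, against -0.06, -0.15 and -0.19 for all tested mRNAs, and limma called none higher at 6 d or 9 d, with 1 and 0 higher at an unadjusted p under 0.05. On rescaling, and with a pseudocount of 1, SHISA3 lost its call at 6 d vs. 0 d (-0.96 and -0.85). APCDD1, which binds Wnt ligands and LRP co-receptors at the cell surface, had 1.43, 1.34 and 1.13 FPKM at 0 d and 18.23, 23.39 and 21.97 at 3 d. This was a peak like that of SFRP2 and DKK1, with a log2 fold change of 3.93 at 3 d (limma, Benjamini-Hochberg adjusted p = 3.76e-09) and FPKM of 1.27 to 2.30 in the 6 d and 9 d libraries. KREMEN1, a receptor of DKK1 and DKK2, had 60.28, 55.08 and 56.54 FPKM at 0 d and 19.64 to 30.11 in the induced libraries. It fell by 1.19 at 6 d, then 1.33 at 9 d vs. 0 d (limma, Benjamini-Hochberg adjusted p = 4.45e-06 and 2.42e-06), and its log2 fold change of -0.95 at 3 d was under the fold threshold. SHISA2 fell by 3.55 at 6 d vs. 0 d and SHISA3 rose by 2.06 at 3 d vs. 0 d (limma, Benjamini-Hochberg adjusted p = 1.75e-07 and 5.71e-06); both hold Frizzled receptors inside the cell.

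The Frizzled receptors and LRP co-receptors, to which these ligands and inhibitors bind, were listed with 12 genes, of which 11 were tested. At 3 d vs. 0 d, 2 were called higher and 4 lower, and at both 6 d and 9 d 1 was called higher and 3 lower. The medians were -0.40, -0.39 and -0.51, against -0.06, -0.15 and -0.19 for all tested mRNAs. FZD1 rose from 21.84, 20.81 and 22.86 FPKM at 0 d to 70.21, 74.70 and 77.10 at 3 d and stayed at 52.69 to 56.62 afterwards. FZD2 and FZD6 were lower than at 0 d on each later day, by 1.25 to 2.50 and by 1.13 to 3.13 on the log2 scale, except that the call of FZD6 at 9 d was lost on rescaling and with a pseudocount of 1. LRP6, a co-receptor bound by DKK1, had 3.88, 7.97 and 7.32 FPKM at 0 d and 21.97, 19.40 and 19.84 at 3 d, a log2 fold change of 1.72 (limma, Benjamini-Hochberg adjusted p = 0.0014).

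Receptors of the other branch and planar polarity genes were listed with 15 symbols, of which 12 were tested. At 3 d vs. 0 d, 2 were called higher and 3 lower, at 6 d 2 were lower, and at 9 d limma called none, with 1 higher and 5 lower at an unadjusted p under 0.05. Limma called none higher at 6 d, where 3 were higher at an unadjusted p under 0.05. The medians were -0.15, 0.06 and -0.42, against -0.06, -0.15 and -0.19 for all tested mRNAs. ROR2, a receptor of WNT5A, was the most abundant of them on each day, with mean FPKM from 434 at 0 d to 642 at 9 d, and was not called. PRICKLE2 and MCAM rose at 3 d vs. 0 d (log2 fold changes of 3.48 and 2.29), and GPC4 and DAAM2 fell by 2.92 and 2.75, all past the threshold. Of the 7 R-spondins and LGR receptors, 3 were tested and limma called 1, lower at 3 d. At an unadjusted p under 0.05 there were 1 higher and 2 lower at 3 d, 1 higher at 6 d and 1 lower at 9 d, the called gene included. The medians were -0.79, -0.16 and -0.22. After rescaling RSPO3, the most abundant of them, was also called at 3 d vs. 0 d, where its libraries overlapped. Its log2 fold change without rescaling was 1.03 (limma, Benjamini-Hochberg adjusted p = 0.0518). PORCN and WLS, which Wnt ligands need for their release, were not called vs. 0 d by limma, with 1 higher at 3 d and 1 lower on each later day at an unadjusted p under 0.05.

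**Figure D4:**
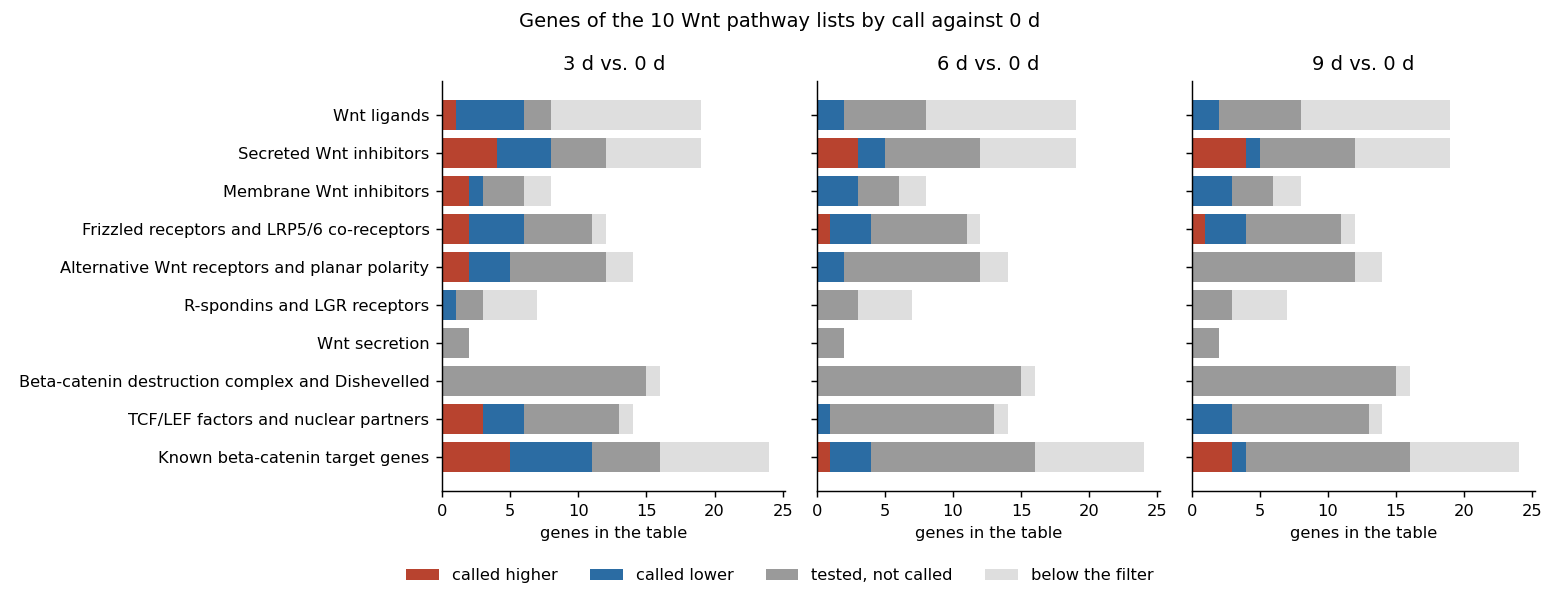
Number of genes (horizontal axis) of the 10 Wnt pathway lists in the mRNA table that were called higher (red), called lower (blue), tested and not called (dark grey) or below the filter (light grey) vs. 0 d, with 1 panel per day. The described genes are part of the lists, and a gene can stand in more than 1 list.

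AXIN2 is a scaffold of the complex that degrades beta-catenin and is itself among the best known beta-catenin targets. Its FPKM was 0.01, 0.05 and 0 at 0 d, 0.06, 0.09 and 0.06 at 3 d, 0.02, 0.04 and 0 at 6 d, then 0.06, 0.01 and 0.02 at 9 d. All 12 values are near 0, so AXIN2 was not tested and no order of the days is read from them. The other 15 genes listed for this complex and the Dishevelled proteins were tested. None was called vs. 0 d by limma, although 9 were under an unadjusted p of 0.05 at 3 d, 5 at 6 d, then 4 at 9 d vs. 0 d. Some of these also had an adjusted p under 0.05 and missed only the fold threshold. After rescaling 1 of them, CSNK1E, was called at 3 d vs. 0 d, its log2 fold change without rescaling being 0.99 (limma, Benjamini-Hochberg adjusted p = 0.00495). The medians were 0.16, -0.01 and -0.04, against -0.06, -0.15 and -0.19 for all tested mRNAs. CTNNB1, which encodes beta-catenin, was the most abundant of them, with mean FPKM of 627, 374, 467 and 536 at 0, 3, 6 and 9 d. Its log2 fold change vs. 0 d was -0.75 at 3 d, -0.43 at 6 d and -0.23 at 9 d, under the fold threshold (limma, Benjamini-Hochberg adjusted p = 1.57e-05, 0.00156 and 0.0405).

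A list of 24 known beta-catenin targets, which includes AXIN2 and DKK1, had 16 tested genes. At 3 d vs. 0 d, 5 were called higher and 6 lower, with a median log2 fold change of -0.02, against -0.06 for all tested mRNAs. The medians at 6 d and 9 d were -0.27 and -0.02, against -0.15 and -0.19. At 6 d 1 was higher and 3 lower, and at 9 d 3 were higher and 1 lower, DKK1 being among those higher on each day. Of all tested mRNAs, 8.06%, 3.39% and 3.41% were called higher on these 3 days, and 15.2%, 7.97% and 7.47% lower. The 1 target called lower at 9 d was close to that share. With a pseudocount of 0.01 WISP2 lost its 6 d call, at -3.08 in place of -3.07 (limma, Benjamini-Hochberg adjusted p = 0.129). NKD2 lost its 3 d call with a pseudocount of 1 (-0.62), and MYC gained a call at 6 d on rescaling. The 8 targets under the filter were AXIN2, NKD1, LGR5, RNF43, SP5, LEF1, CDX1 and TBXT. LEF1 is also a partner of beta-catenin, and it was at 0 to 0.08 FPKM.

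The targets did not move in one direction. CCND1, which drives entry into the cell cycle, had 85.67, 79.23 and 87.48 FPKM at 0 d, 3.94, 4.42 and 3.73 at 3 d, 47.80, 50.09 and 51.17 at 6 d, then 196.92, 184.12 and 183.15 at 9 d. It was lowest at 3 d and highest at 9 d, with log2 fold changes of -4.35 and 1.16 vs. 0 d (limma, Benjamini-Hochberg adjusted p = 7.72e-11 and 1.57e-06). WISP1, a matricellular protein, fell by 5.26 at 3 d (limma, Benjamini-Hochberg adjusted p = 1.45e-10), from 8.71 to 9.93 FPKM at 0 d to 0.13 to 0.18. WISP2 had 325.13, 333.98 and 345.46 FPKM at 0 d and 0.97, 0 and 0 at 3 d, and returned to 247.42 to 261.87 at 9 d. MYC and CYP1B1 rose at 3 d by 1.56 and 2.46 (limma, Benjamini-Hochberg adjusted p = 0.00121 and 3.93e-09), as did APCDD1 and DKK1. NOTUM, which also inactivates Wnt ligands, was lower on each later day, from 1.06 to 1.41 FPKM at 0 d to at most 0.11 at 9 d, although its calls at 3 d and 6 d were lost with a pseudocount of 1, and that at 3 d also with a pseudocount of 0.01.

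**Figure D5:**
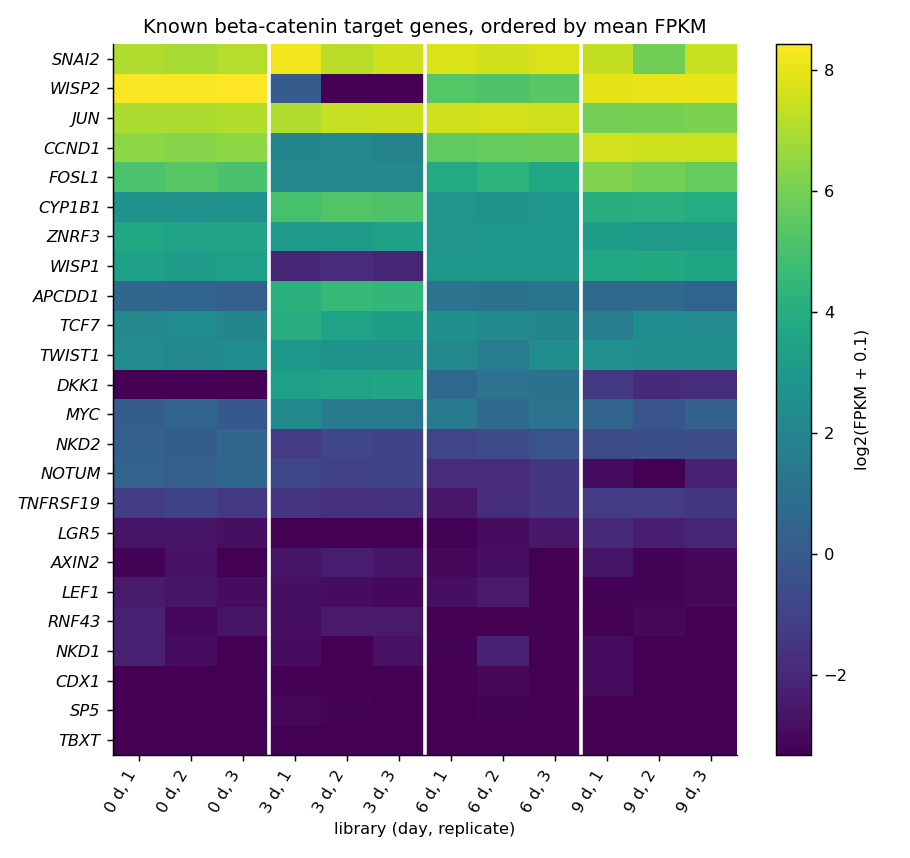
Level of the 24 listed beta-catenin targets (rows, ordered by mean FPKM) in the 12 libraries (columns, by day and replicate), with the colour giving log2(FPKM + 0.1). DKK1, APCDD1 and CYP1B1 are highest at 3 d, WISP1, WISP2 and CCND1 are lowest at 3 d, and AXIN2, LEF1 and SP5 are near 0 throughout.

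Of the TCF/LEF factors and nuclear partners, 13 of 15 listed genes were tested. At 3 d vs. 0 d, 3 were called higher and 3 lower, at 6 d 1 was lower and at 9 d 3 were lower. On rescaling, 2 of the 3 lost their call at 9 d, TLE2 being the one that kept it, and 1 of those called lower at 3 d lost its call. Limma called none higher on the later days, and none was higher at an unadjusted p under 0.05. The medians were -0.06, -0.41 and -0.24, against -0.06, -0.15 and -0.19 for all tested mRNAs. The 1 gene called lower at 6 d was close to the 7.97% of all tested mRNAs called in that direction. The corepressor TLE2 had 81.18, 72.42 and 63.54 FPKM at 0 d, 3.50, 6.04 and 6.88 at 3 d, 7.99, 2.25 and 4.06 at 6 d, then 25.33, 22.08 and 16.58 at 9 d. TLE1, a related corepressor, rose by 1.41 at 3 d vs. 0 d (limma, Benjamini-Hochberg adjusted p = 1.31e-06) and AES, a shortened member of that family, fell by 1.44 (limma, Benjamini-Hochberg adjusted p = 4.34e-09). TCF7 rose by 1.38 at 3 d (limma, Benjamini-Hochberg adjusted p = 0.000732). Over all 10 lists, 93 genes were tested, and of their 42, 19 and 19 calls at 3, 6 and 9 d vs. 0 d, 41, 18 and 15 remained on rescaling, with no sign turned, and rescaling added 2, 1 and 0 calls.

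For each of the 6 genes with a mean of at least 1 FPKM, the 3 mRNAs with the most similar profile were sought among 10221 mRNAs, by Pearson correlation of log2(FPKM + 0.1) over the 12 libraries. The libraries fall into 4 days, so that r mostly reflects the day means. The closest to SFRP4 were SAT1 (r = 0.987), EDEM2 (0.986) and GPI (0.984), and those to SFRP2 were GFPT2 (0.991), CEACAM1 (0.991) and NEURL4 (0.990). Like SFRP2, GFPT2 peaked at 3 d, its day means being 98.7, 275, 99.2 and 53.5 FPKM. To DKK1 the closest were a row shared by PICALM and an unnamed locus (r = 0.995), LAMB1 (0.994) and FBXO21 (0.994), to DKK3 NXT2 (0.977), DRAM2 (0.967) and YIPF5 (0.965), and to SFRP1 FAM43A (0.955), NR4A3 (0.946) and MCM4 (0.946). WNT5A had the least similar neighbours, a row shared by SNX13 and an unnamed locus (r = 0.847), TAB1 (0.844) and GPATCH8 (0.841). TAB1 was low in the same 2 libraries as WNT5A, with 0.62 FPKM in the second 6 d library and 0.75 in the third 9 d library, against 2.59 to 3.20 in the other libraries.

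The circRNA table, which counts reads across back-spliced junctions, held 14070 circRNAs and between 5358 and 10729 such reads per library. Only 1 of the 10 genes hosted any of them. This was a circRNA of DKK3 with 1 read, in the third 0 d library. In a library without such reads, a count of 0 allows a share of up to 0.028% to 0.056% of its back-spliced reads, counting error only.

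Marker genes of other cells that a muscle culture can hold were read beside these genes. Of 10 tested skeletal muscle markers, 6 were called lower at 3 d and 7 at both 6 d and 9 d vs. 0 d, where 15.2%, 7.97% and 7.47% of all tested mRNAs were called lower. Their medians were -1.33, -1.46 and -1.49, against -0.06, -0.15 and -0.19 for all tested mRNAs. Limma called none higher, and at an unadjusted p under 0.05 there was 1 higher, at 6 d. Their summed FPKM, led by DES, was 833, 878 and 955 at 0 d, 278, 310 and 304 at 3 d, 406, 384 and 429 at 6 d, then 332, 300 and 332 at 9 d. None of them was at 0 in all libraries. Of 7 tested smooth muscle and pericyte markers, 1 was called higher and 5 lower at 3 d, 1 higher and 2 lower at 6 d, and 3 lower at 9 d, where limma called none higher and none was higher at an unadjusted p under 0.05. The medians were -3.41, -0.10 and -0.93, beside the same medians of all tested mRNAs. DES stands in this list and in that of skeletal muscle. Their summed FPKM, led by ACTA2 except at 3 d, was 2299, 2342 and 2488 at 0 d, 239, 264 and 256 at 3 d, 1961, 2093 and 2094 at 6 d, then 963, 888 and 966 at 9 d. The sum was lowest at 3 d and mostly ACTA2 on the other days, while the markers did not all follow it. MCAM was called higher at 3 d, and MYH11 had 23.73, 26.28 and 19.81 FPKM at 0 d and 60.62, 59.66 and 51.21 at 3 d (95% confidence interval of the log2 fold change -0.14 to 2.73, limma, Benjamini-Hochberg adjusted p = 0.118). WNT5B, DKK2 and DKK3 were also lowest at 3 d, and the part of these markers' cells in those values was not tested.

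Among 9 tested genes of the glucocorticoid response, 7 were higher by the call at both 3 d and 6 d vs. 0 d, and 3 at 9 d, while 1 was lower at 3 d and 2 at 9 d. Limma called none lower at 6 d, where 1 was lower at an unadjusted p under 0.05. The medians were 2.09, 1.53 and 0.67, against -0.06, -0.15 and -0.19 for all tested mRNAs, of which 8.06%, 3.39% and 3.41% were called higher. Their summed FPKM, led by DUSP1, was 443, 423 and 466 at 0 d, 1630, 1596 and 1529 at 3 d, 1172, 1327 and 1324 at 6 d, then 818, 807 and 782 at 9 d. Its order of days was that of DKK1 but not that of SFRP2 or SFRP4. The part of DEX in the values of DKK1, SFRP2 and SFRP4 was not tested. Of 13 tested adipocyte markers, 9 were called higher and 2 lower at 3 d, and 7 higher at both 6 d and 9 d. Limma called none lower on the later days, where 2 and 3 were lower at an unadjusted p under 0.05. The adipocyte medians were 1.91, 1.14 and 1.42, beside the same values of all tested mRNAs. Their summed FPKM was 26.0, 27.2 and 27.1 at 0 d, led by CIDEA, 157, 149 and 156 at 3 d and 61.3, 64.8 and 64.6 at 6 d, led by FABP4, then 68.3, 58.9 and 71.8 at 9 d, led by LEP. The markers PPARG and PLIN1 share rows with other genes and were not analysed here.

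Of 10 tested markers of fibro-adipogenic progenitors, the cell type that gives rise to intramuscular adipocytes, 5 were called higher and 2 lower at 3 d, 4 higher and 1 lower at 6 d, and 3 higher and 1 lower at 9 d. Their medians were 0.91, 0.03 and 0.44, against -0.06, -0.15 and -0.19 for all tested mRNAs, and COL3A1 led them on all days. Of all tested mRNAs, 8.06%, 3.39% and 3.41% were called higher on these days, and 15.2%, 7.97% and 7.47% lower. Endothelial markers were low, with 3 of 8 tested and summed FPKM of 2.52 to 3.73, led by VWF. Limma called 1, lower at 6 d, with 1 higher and 1 lower at 3 d and 2 lower at 9 d at an unadjusted p under 0.05. The endothelial medians were 0.27, -0.15 and -0.54. Of the blood and immune markers 4 of 10 were tested, with summed FPKM of 1.12 to 5.89. PTPRC, ITGAM and HBB were listed at 0 in all 12 libraries, and 3, 1 and 2 of the 4 were called higher at 3, 6 and 9 d vs. 0 d, with medians of 1.47, 0.49 and 0.89. The call at 6 d and 1 of those at 9 d were CD79A, which had 0.73, 0 and 0 FPKM at 0 d and overlapped with 0 d on both days. Of 10 tested proliferation genes limma called none vs. 0 d and 2 at 9 d vs. 3 d, both lower, and at an unadjusted p under 0.05 there were 3 higher at 3 d, 2 higher and 2 lower at 6 d, and 7 lower at 9 d vs. 0 d. The proliferation medians were 0.23, 0.02 and -0.46.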

How the data were processed

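The deposited FPKM values of mRNAs were made by the authors, whose processing notes name HISAT2 2.0, StringTie 1.3.0 and Bowtie 0.12.2, and whose methods name the bovine assembly ARS-UCD1.2. Those notes also list a mouse build, and the labels and methods differ on whether poly(A) RNA was selected or rRNA removed, and in the concentrations of DEX and insulin, where the insulin of the labels is given here. The circRNA table gave deposited counts of back-spliced reads, and its 12 columns of normalized values were not used here, nor were the lncRNA and miRNA tables. Day labels defined the groups.

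Log2(FPKM + 0.1) of mRNAs with a mean of at least 0.1 FPKM was fitted over all 12 libraries with limma 3.58.1 (R 4.3.3), with 1 mean per day, a variance trend and Benjamini-Hochberg adjustment within each of the 6 comparisons. The study's edgeR test needs mRNA counts and was not used here. The script was tested on simulated data. Alternatives were other pseudocounts, filters and scalings, only the libraries compared, a replicate block and leaving out each library. For pathway genes they were added after seeing the data.

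Named in the text were the 10 members, and from each pathway list at most 4 other genes, those with the largest changes among the ones called vs. 0 d without overlapping libraries and with a mean of at least 1 FPKM. Any beta-catenin target, the 3 mRNAs most similar to a member and the leading gene of a marker list were also allowed. RYK, CSNK1E, RSPO3, MYH11, CD79A, CTNNB1, ROR2, PORCN and WLS, and genes listed at 0, were added after their values were seen. Members and lists were chosen with earlier results of these data known. The list genes CELSR3, PYGO2, PPARG, PLIN1, KLF9 and TTN stand in rows shared with other genes and, with PAX7 and TRABD2A, were not analysed here. No 2 of the 12 libraries held identical values.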

Additional observations from a re-analysis of the deposited data

How the results depend on the processing

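Of 324 values of the tested genes under other settings, 315 kept their direction and their side of the threshold, 7 lost the call and 2 turned sign. All 7 losses came with a pseudocount of 1 and concerned DKK2, WNT5B and, at 9 d vs. 0 d, DKK1. DKK2 and WNT5B did not pass the filter at a mean of 1 FPKM and have no values under it. The 2 that turned sign were not called in either case and came with rescaling, namely WNT5B at 9 d vs. 6 d (0.01) and WNT5A at 9 d vs. 3 d (0.07). Leaving out 1 library gave -0.23 to 0.20 for WNT5A at 9 d vs. 3 d, -0.45 to 0.07 at 6 d vs. 3 d and -0.13 to 0.48 at 9 d vs. 6 d, and -0.14 to 0.09 for WNT5B at 9 d vs. 6 d. Of 576 such values 565 were the same, 4 gained a call and 7 turned sign.

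The number of mRNAs called was 2184, 967, 888, 1688, 368 and 1863 with a pseudocount of 1, in place of 3585, 1749, 1675, 2939, 683 and 3157, at 3 d, 6 d and 9 d vs. 0 d, 6 d vs. 3 d, 9 d vs. 6 d and 9 d vs. 3 d. A filter at a mean of 1 FPKM, under which fewer mRNAs were tested, gave 1114 at 9 d vs. 0 d. Members called at 9 d vs. 3 d were 3 under either setting, in place of 5, at 3 d vs. 0 d 4 in place of 6 and at 6 d vs. 3 d 5 in place of 7. With the filter this was because DKK2 and WNT5B were not tested. Rescaling moved the share of calls that were higher from 29.8% to 40.8% at 6 d and from 31.3% to 46.8% at 9 d vs. 0 d; other causes were not tested.

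Of 946 values of the named pathway genes, under settings chosen after seeing the data, 930 were the same, 16 lost their call and none turned sign. Deviations of libraries with the same replicate number correlated at -0.098 to 0.112, and 2 of 18 such values were over 0.1. Libraries with other numbers correlated at -0.19 to 0.183. These values show no pairing by number, but weak correlations over many mRNAs near 0 cannot exclude one. With a replicate block all 48 values of the members kept their direction and call, for example SFRP4 at 3.53 for 3 d vs. 0 d. Read counts of mRNAs were not used here, which limits what can be said of genes near 0, such as AXIN2, WIF1 and DKK2.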

Other observations

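Of the 126 genes of the Wnt pathway lists in the mRNA table, DKK3 among them, 31 hosted circRNAs, with 458 back-spliced reads in all. RYK, a Wnt receptor that also binds WNT5A and was singled out after its values were seen, gave 289 of these reads (63.1%) in 14 circRNAs, and the next host had 21 reads. RYK had between 15 and 30 back-spliced reads in each of the 12 libraries, which was 0.223% to 0.406% of all back-spliced reads. The lowest share, in the first 3 d library, had an exact (Clopper-Pearson) 95% interval of 0.128% to 0.362%. The highest, in the first 0 d library, had one of 0.272% to 0.583%. These intervals overlap and cover counting error only. Each 0 d share (0.32% to 0.406%) was above each share of 6 d (0.252% to 0.302%) and 9 d (0.267% to 0.289%). The 3 d shares (0.223% to 0.35%) overlapped with those of all other days, and differences between days were not tested. The FPKM of the RYK mRNA was 9.13, 9.93 and 10.27 at 0 d, 5.16, 5.23 and 5.32 at 3 d, 6.88, 8.33 and 7.05 at 6 d, then 8.56, 9.66 and 10.42 at 9 d. It was lowest at 3 d, with a log2 fold change of -0.89 vs. 0 d (limma, Benjamini-Hochberg adjusted p = 2.97e-05), under the fold threshold.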
